A study of Mus musculus with 2 samples.

Results

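The receptors for neuropeptide S, neurotensin, the tachykinins, cholecystokinin, corticotropin-releasing hormone, oxytocin, vasopressin and somatostatin were followed through 10 genes: Npsr1, Ntsr1, Ntsr2, Tacr1, Tacr3, Cckbr, Crhr1, Oxtr, Avpr1a and Sstr1. They were chosen by name from the 55450 genes in the deposited tables, and 8 of the 10 had at least 100 UMIs (unique molecular identifiers, each of which marks 1 captured RNA molecule) in the nuclei that were kept. The tissue was the ventrolateral periaqueductal gray (vlPAG), the lower lateral sector of the gray matter around the midbrain aqueduct. Wild-type C57BL/6J mice, 8 weeks old at the start, received a high-fat diet (HFD) or a normal-food diet (NFD) for 7 weeks. Tissue of 18 mice was pooled on each diet and gave 1 library of single nuclei, aimed at 8000 nuclei. With 1 library per diet no difference between the diets could be tested, the diet cannot be told apart from the pooling, dissection and capture of that library, and all intervals are 95% counting intervals.

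All 10 products are G protein-coupled receptors that sit in the cell membrane and answer short peptides released by other neurons. Most of them, among them the receptors for neurotensin, the tachykinins, cholecystokinin, oxytocin and vasopressin, couple mainly to Gq and phospholipase C. Crhr1 couples mainly to Gs and raises cyclic AMP, the neuropeptide S receptor uses both routes, and the somatostatin receptor couples to Gi and lowers cyclic AMP. The vlPAG sends descending fibres that set the gain of pain transmission in the spinal cord, and its neurons also take part in arousal, defensive immobility and autonomic control.

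The HFD library kept 6322 nuclei with 54587419 UMIs, and the NFD library kept 7500 nuclei with 41042988 UMIs. HFD nuclei were deeper, with a median of 7347.5 UMIs against 4504.5 in NFD nuclei, and detection was therefore also scored with every nucleus thinned to 2000 UMIs, which left 5314 HFD and 6359 NFD nuclei. The libraries shared 12 cell barcodes. Levels are CPM, the UMIs of a gene per 1000000 UMIs of all genes, summed over a set of nuclei. Clustering gave 23 clusters, of which 18 were named from marker genes and 5 were not, and a name such as astrocyte-like stands for those markers only. Every marker on the lists was detected in its own GABAergic-like, glutamatergic-like, dopaminergic-like, astrocyte-like and ependymal-like group in both libraries. The libraries also differed in content that did not come from the receptors: cerebellar granule-like nuclei (cluster 5) numbered 766 in HFD and 10 in NFD, and Hbb-bs, which encodes adult beta globin, was at 0.55 CPM in HFD and 7.21 CPM in NFD. A cluster held almost by 1 library alone may belong to that library rather than to a cell type.

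The receptors fell into 4 patterns across the clusters. Npsr1, Tacr1 and Tacr3 were read most in glutamatergic-like clusters and in particular GABAergic-like clusters. Ntsr1 was highest in dopaminergic-like nuclei, Ntsr2 in astrocyte-like nuclei and Cckbr in ependymal-like nuclei. Crhr1 was highest in the granule-like nuclei, and Oxtr, Avpr1a and Sstr1 were at the lower edge of detection.

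**Figure D1:**
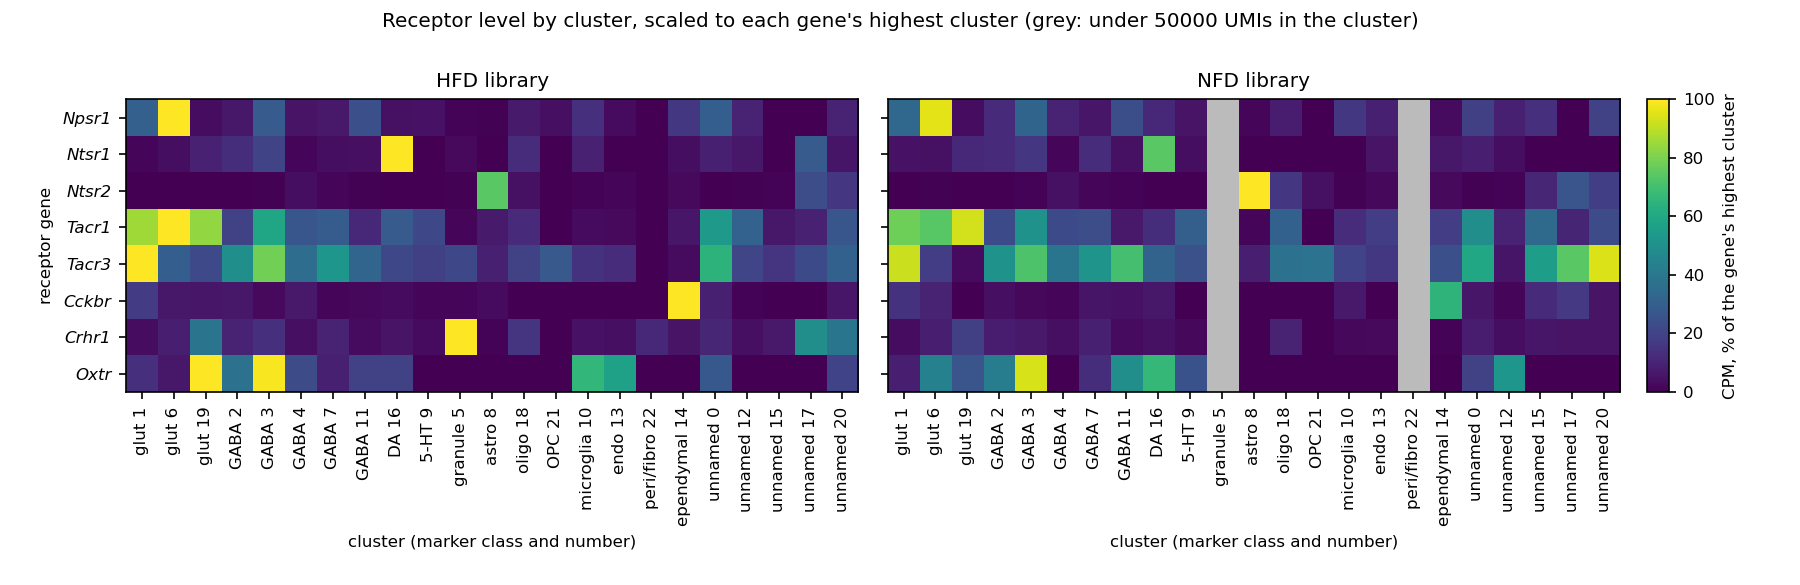
Level of the 8 receptors with at least 100 UMIs in each of the 23 clusters (columns, by marker class and cluster number), HFD library on the left and NFD library on the right, as a percentage of the gene's highest cluster in either library; grey marks clusters with under 50000 UMIs of all genes. Ntsr1, Ntsr2 and Cckbr each had 1 bright cluster in both libraries, while Tacr1 and Tacr3 were spread over many neuronal clusters.

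Levels of different genes are given per length of the gene span, which had a Spearman's rho of 0.855 with the number of UMIs over these 10 genes, a description with no test. Per kilobase of gene span and over both libraries, Ntsr2 had 1.69 CPM, Crhr1 had 0.341, Sstr1 had 0.25, Npsr1 had 0.246 and Tacr1 had 0.234. Tacr3 had 0.169 CPM per kilobase, and Cckbr, Avpr1a, Oxtr and Ntsr1 had 0.0891, 0.0739, 0.0643 and 0.0546. The long gene Npsr1 had the most UMIs of the 10, 5147, but did not lead once its length was taken into account, while the short gene Sstr1 stood next to Npsr1 on 64 UMIs. The sources used here do not state whether reads from introns entered the counts, and without them the gene span would not be the fitting length, so this order is provisional.

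Over all nuclei, 2 of the 8 measured receptors differed between the libraries by the size rule, which asks that the whole counting interval of the ratio put one library more than 25% above the other. Crhr1 was higher in HFD and Ntsr2 was lower in HFD. The same rule called 4.87% of the 16345 genes with at least 100 UMIs, 1.72% as higher in HFD and 3.15% as lower. The median log2 ratio of the 8 receptors was 0.00, beside −0.04 for all genes measured, with 4 receptors above 0 and 4 below. Npsr1, Tacr1, Tacr3, Ntsr1 and Oxtr had log2 ratios between −0.08 and 0.13. Cckbr had a log2 ratio of 0.30, with an interval of −0.00 to 0.61.

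**Figure D2:**
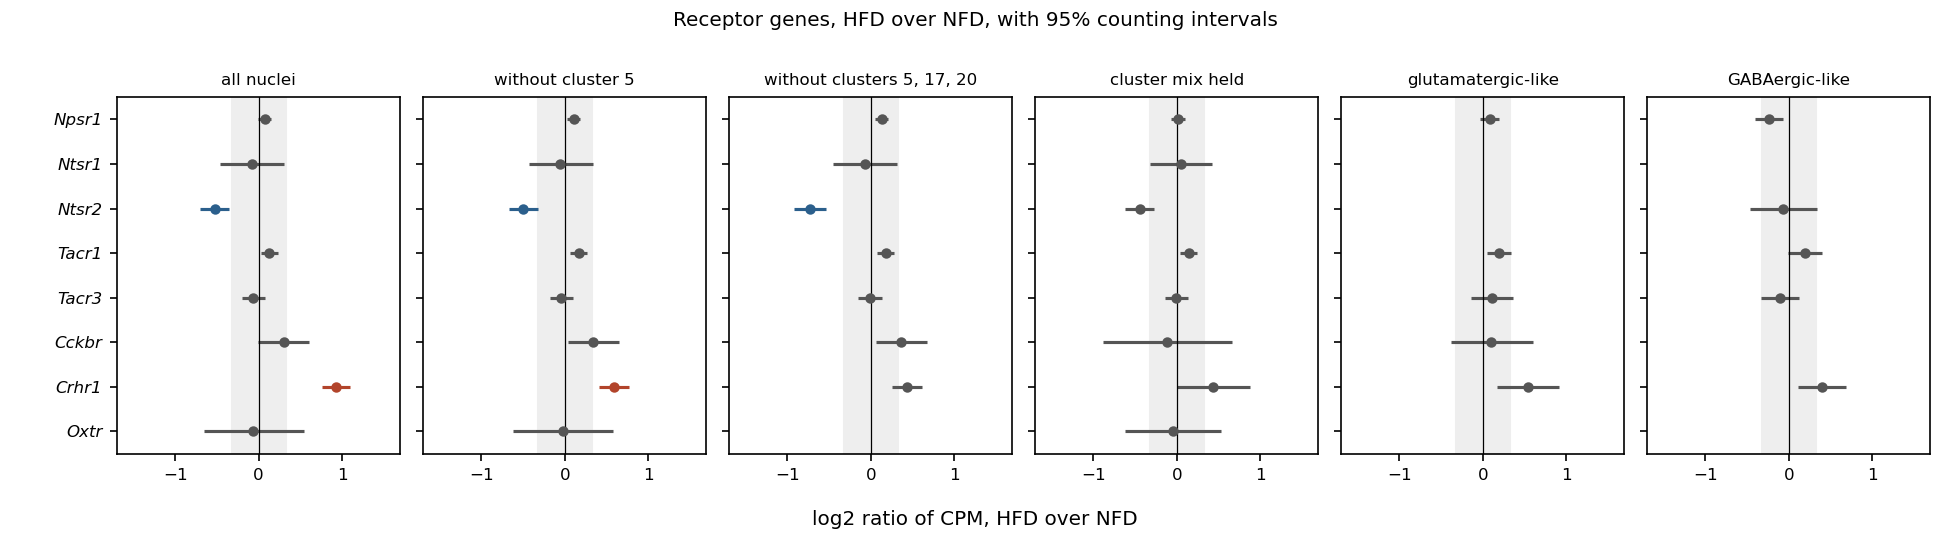
Log2 ratio of CPM, HFD over NFD (horizontal axis), for the 8 receptors with at least 100 UMIs, with 95% counting intervals, in all nuclei, in 2 sets without granule-marked clusters, with the cluster mix held equal, and in glutamatergic-like and GABAergic-like nuclei (genes under 100 UMIs in a set are left out). Red and blue mark receptors called higher and lower in HFD, and the grey band spans ratios with neither library over 25% above the other; dark grey points were not called. Crhr1 is red in the first 2 panels and not called in the last 4, where its ratio stays above the band but its interval reaches into it, and Ntsr2 is blue in the first 3.

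Npsr1 encodes the receptor for neuropeptide S, a peptide of brainstem neurons that promotes wakefulness and reduces fear. The gene lies on chromosome 9 of GRCm38, from 24097996 to 24316398 on the plus strand, and the antisense genes Gm47674 and Gm15600 overlap it. Its highest cluster was cluster 6, a glutamatergic-like cluster led by Arhgap15, Bnc2, Npsr1 itself, Nts and Cck, although all 10 receptors and their ligands had been kept out of the clustering. There it had 972 UMIs in HFD and 547 UMIs in NFD, or 238 CPM (224 to 254) and 228 CPM (209 to 248). The levels of the libraries overlapped within counting error.

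In cluster 6 Npsr1 stood 5.94-fold (5.50 to 6.41) above all other nuclei in HFD and 5.51-fold (4.99 to 6.07) in NFD, and this cluster held 29.5% of its UMIs. The share of cluster 6 nuclei with an Npsr1 UMI was 38.6% in HFD and 33.9% in NFD, and after thinning it was 25.6% and 25.0%. In the pooled microglia-like, endothelial-like and mature oligodendrocyte-like nuclei, taken as cells that should lack the receptor, it was 2.54% in HFD and 2.77% in NFD (2.88% and 4.17% after thinning). Microglia-like nuclei alone had 13 Npsr1 UMIs in 5 HFD nuclei and 11 in 2 NFD nuclei, which gave 32.7 and 38.5 CPM. The 968 background nuclei were shallow, with a median of 1363 UMIs against 10055 and 6001 UMIs in HFD and NFD nuclei of cluster 6.

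Outside cluster 6, Npsr1 was at 73.0 CPM in HFD and 79.5 CPM in NFD in cluster 1, a glutamatergic-like cluster led by Tcf7l2 and Tac1. The GABAergic-like cluster 3, with the opioid-family peptide genes Pnoc and Penk among its leading genes, had 68.0 and 77.1 CPM. The GABAergic-like cluster 11, with Sst among its leading genes, had 57.8 CPM in HFD and 57.6 CPM in NFD. These 3 clusters could not be put in a firm order, since their intervals touched in at least 1 library. Serotonergic-like nuclei (11.8 CPM in HFD and 12.9 CPM in NFD) and the GABAergic-like cluster 4 (12.8 and 23.3 CPM) were no higher than the 18.3 and 23.9 CPM of the pooled background nuclei, and were not told apart from background. A UMI was found in 8.82% of HFD and 8.11% of NFD serotonergic-like nuclei, or 1.78% and 3.94% after thinning. Of nuclei with an Npsr1 UMI, 37.5% in HFD and 28.9% in NFD carried glutamate markers without GABA markers, beside 25.2% and 21.2% of all nuclei.

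In 2 clusters Npsr1 was called between the libraries, in opposite directions. In cluster 0, which was unnamed and led by Fign, Foxp2 and Ebf2, it had 610 UMIs and 71.5 CPM in HFD, against 375 UMIs and 45.6 CPM in NFD, a log2 ratio of 0.65 (0.46 to 0.84). There 1 of 4 measured receptors was called, beside 1.72% of all genes measured in that cluster. In the GABAergic-like cluster 2, led by Cdh23 and Gad1, it had 84 UMIs and 14.9 CPM in HFD, against 179 UMIs and 28.8 CPM in NFD, a log2 ratio of −0.95 (−1.34 to −0.57), and 1 of 4 receptors was called beside 1.47% of genes. Both values in cluster 2 lay near those of the background nuclei. When the nuclei with the highest 6% of doublet scores were removed and the rest clustered anew, the make-up of both clusters changed. Over both libraries the cluster led by Fign and Ebf2 went from 1976 nuclei and 58.8 CPM of Npsr1 to 1187 nuclei and 37.1 CPM. The one led by Cdh23 and Gad1 went from 1616 nuclei and 22.2 CPM to 2022 nuclei and 42.5 CPM.

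The difference in cluster 0 sat in few nuclei with many UMIs and was not seen in the share of nuclei with a UMI. That share was 15.2% in HFD and 12.9% in NFD, but 5.89% and 7.14% after thinning, so no order is read from it. Nuclei with 5 or more Npsr1 UMIs numbered 33 of 646 in HFD and 12 of 1330 in NFD, and the highest nucleus had 51 UMIs in HFD and 23 UMIs in NFD. Over all nuclei the levels were close, at 54.9 CPM in HFD and 52.3 CPM in NFD. There 582 HFD and 744 NFD nuclei had an Npsr1 UMI (9.21% and 9.92%), while 22 HFD and 2 NFD nuclei had 20 or more. The tenth of positive nuclei with the most UMIs, 59 in HFD and 75 in NFD, held 40.6% and 38.6% of all Npsr1 UMIs. HFD nuclei were deeper throughout, in cluster 0 with a median of 10531.5 UMIs against 4625.5 in NFD. The part of depth in these counts was not tested. The counting interval of the cluster 0 ratio takes each UMI as a separate draw. It leaves out how unevenly the UMIs lay among nuclei.

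**Figure D3:**
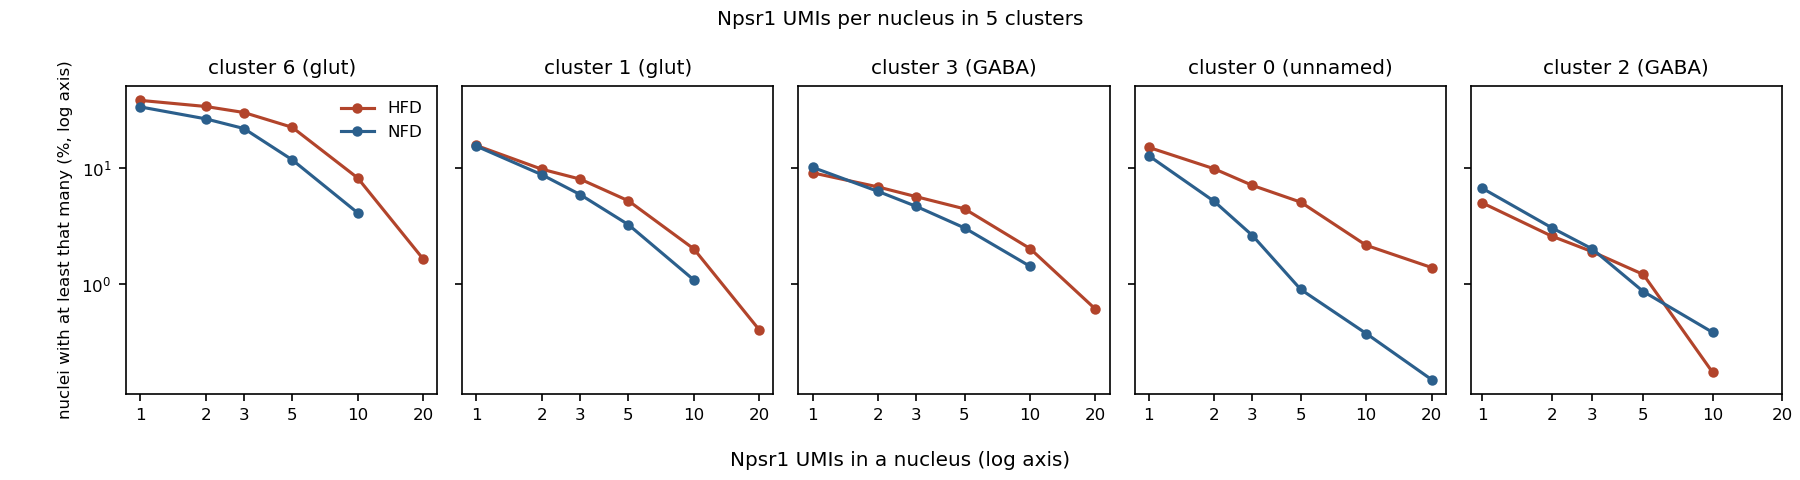
Percentage of nuclei (vertical axis, log scale) with at least 1, 2, 3, 5, 10 or 20 Npsr1 UMIs (horizontal axis, log scale) in 5 clusters, HFD in red and NFD in blue; a point is left out where no nucleus reached that number. In cluster 0 the libraries start close together, at 15.2% in HFD and 12.9% in NFD, and part at higher numbers.

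Genes whose level followed that of Npsr1 over the 23 clusters were few. Of 14279 genes with at least 200 UMIs, Lncenc1 (r of 0.823) and Spata32 (r of 0.801) passed a correlation of 0.8. Within cluster 6, Nts, the gene of neurotensin, was detected in 20.7% of HFD and 17.9% of NFD nuclei with an Npsr1 UMI, against 10.8% and 9.58% of nuclei without one. After thinning the shares with Npsr1 were 9.68% and 8.89%, and those without were 5.93% in both libraries, from 9 and 8 nuclei with both genes. The numbers are too small to read a difference from them.

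Tacr1 encodes the neurokinin 1 receptor, which binds substance P and is a classic marker of ascending pain pathways in the spinal cord. The gene spans 158 kilobases of chromosome 6 (82402334 to 82560104, plus strand). It was found in many neuronal clusters and was highest in the 3 glutamatergic-like clusters. In cluster 6 it had 342 UMIs and 83.9 CPM (75.2 to 93.2) in HFD, and 149 UMIs and 62.1 CPM (52.6 to 73.0) in NFD. In cluster 19, led by Spx and Prdm6 and also marked by the noradrenaline transporter gene Slc6a2, it had 70.4 CPM in HFD and 78.1 CPM in NFD, and in cluster 1 it had 71.8 and 65.4 CPM. No order of these 3 clusters held in both libraries, since cluster 6 ranked first in HFD and cluster 19 in NFD. The glutamatergic-like name of cluster 19 is not firm. With the highest doublet scores removed, the cluster led by Spx and Prdm6 went unnamed, with the cholinergic marker Chat among its leading genes.

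The next levels of Tacr1 were 49.2 CPM in HFD and 43.2 CPM in NFD in GABAergic-like cluster 3, and 45.2 and 41.5 CPM in cluster 0. Tacr1 in cluster 6 was above cluster 3 in both libraries, by a log2 ratio of 0.77 (0.52 to 1.02) in HFD and 0.52 (0.17 to 0.88) in NFD. Background nuclei had 4.35 CPM in HFD and 17.8 CPM in NFD, on 5 and 26 UMIs. Of the nuclei with a Tacr1 UMI, 44.4% in HFD and 36.4% in NFD carried glutamate markers alone, beside 25.2% and 21.2% of all nuclei. The genes closest to it in pattern were Gm29088 (r of 0.883), Klhl1 (0.881) and Vwc2l (0.876).

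Between the libraries Tacr1 was not called in any set. Its log2 ratio was 0.13 (0.03 to 0.23) in all nuclei, 0.19 (0.05 to 0.34) in glutamatergic-like nuclei and 0.43 (0.15 to 0.72) in cluster 6, each with its lower bound inside that 25% band. Over all nuclei 15.1% of HFD and 12.4% of NFD nuclei had a Tacr1 UMI, and after thinning 5.76% and 5.88% did. In cluster 1, Tac1, which encodes the substance P precursor, was found in 47.4% of HFD and 34.2% of NFD nuclei with a Tacr1 UMI, against 21.9% and 23.1% of nuclei without one. After thinning these shares were 14.6% and 20.6% with Tacr1, against 12.4% and 13.2% without. Nuclei with a Tacr1 UMI were the deeper ones in that cluster (medians of 10345 and 6583 UMIs against 8939 and 5123.5), and the part of depth in the unthinned shares was not tested.

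Tacr3 encodes the neurokinin 3 receptor, which prefers neurokinin B. The gene lies on chromosome 3 (134829007 to 134934579, plus strand). Among the clusters with at least 50 UMIs of the gene in each library it was highest in cluster 1, with 270 UMIs and 34.6 CPM (30.6 to 39.0) in HFD and 199 UMIs and 31.9 CPM (27.6 to 36.7) in NFD. Cluster 3 followed with 27.2 and 25.0 CPM, and cluster 0 with 22.4 and 20.8 CPM. The small NFD cluster 20 had 32.8 CPM (16.9 to 57.2) on 12 UMIs, an interval that holds all of these. In cluster 6, where Npsr1 and Tacr1 were high, Tacr3 had only 10.3 CPM in HFD and 6.26 CPM in NFD, near the 5.22 and 8.21 CPM of background nuclei. Its log2 ratio was −0.06 (−0.20 to 0.08) in all nuclei, −0.11 (−0.34 to 0.12) in GABAergic-like and 0.11 (−0.14 to 0.37) in glutamatergic-like nuclei. Bmper (r of 0.818) was the closest gene in pattern. Tacr1 and Tacr3, both tachykinin receptors, were found together in 141 HFD and 81 NFD nuclei, or in 7 and 13 after thinning. After thinning Tacr1 was found in 5.76% of HFD and 5.88% of NFD nuclei, and Tacr3 in 2.62% and 3.38%. Whether the genes met more often than these shares alone would give was not tested.

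Ntsr1 encodes the high-affinity neurotensin receptor, known in the ventral midbrain as a receptor of dopamine neurons, from chromosome 2 (180499976 to 180544980, plus strand). It was low, with 131 UMIs in HFD and 104 UMIs in NFD, and its highest level was in cluster 16, the dopaminergic-like cluster that Vip, Lmx1a, Ret, Cck and Th mark. There it had 36 UMIs and 27.1 CPM (18.99 to 37.5) in HFD, and 24 UMIs and 20.2 CPM (12.96 to 30.1) in NFD. This was 15.2-fold (10.1 to 22.5) above all other nuclei in HFD and 10.1-fold (6.11 to 16.1) in NFD, and cluster 16 held 25.5% of the UMIs of the gene. GABAergic-like nuclei had 2.61 CPM in HFD and 2.77 CPM in NFD, and background nuclei had 1.74 and 0.684 CPM, on 2 UMIs and 1 UMI. Ret, Vip and 4930467D21Rik were closest in pattern (r of 0.834, 0.828 and 0.810). In cluster 16 an Ntsr1 UMI was found in 20.9% of HFD and 10.5% of NFD nuclei, and after thinning in 2.73% and 2.70%, from 3 and 5 nuclei. Between the libraries the log2 ratio in cluster 16 was 0.42 (−0.36 to 1.23), below the number of UMIs set for a call.

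Ntsr2 encodes the second, lower-affinity neurotensin receptor, which astrocytes are known to carry, from chromosome 12 (16653382 to 16660227, plus strand). It was read above all in cluster 8, the astrocyte-like nuclei (218 HFD and 349 NFD nuclei), with 219 UMIs and 340 CPM (297 to 389) in HFD and 319 UMIs and 457 CPM (408 to 510) in NFD. That was 59.0-fold (49.4 to 70.4) above all other nuclei in HFD and 72.3-fold (61.1 to 85.6) in NFD. The 2 unnamed clusters that share astrocyte genes came next: cluster 17 with 108 CPM in HFD and 120 CPM in NFD, and cluster 20 with 71.8 and 84.7 CPM. Nuclei of cluster 20 were deep, with medians of 8315.5 UMIs in HFD and 5634 in NFD, against 2703.5 and 1772 in astrocyte-like nuclei. They also carried Tacr1, at 22.4 and 19.1 CPM, and whether they are doublets was not tested. Mature oligodendrocyte-like nuclei had 20.4 CPM in HFD and 71.6 CPM in NFD, with astrocyte markers summing to 310 and 790 CPM there. Among named neuronal clusters the GABAergic-like cluster 4, led by Col23a1 and Nxph1, was highest, with 17.2 CPM in HFD and 19.7 CPM in NFD on 78 and 50 UMIs. Microglia-like and endothelial-like nuclei had between 3.5 and 9.77 CPM. Acsbg1, Itih3 and Paqr6 were closest in pattern (r of 0.962, 0.958 and 0.957).

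Ntsr2 was lower in HFD over all nuclei, with 530 UMIs and 9.71 CPM in HFD against 574 UMIs and 14.0 CPM in NFD, a log2 ratio of −0.53 (−0.70 to −0.35). Astrocyte-like nuclei were 3.45% of HFD and 4.65% of NFD nuclei. Within them the log2 ratio was −0.43 (−0.68 to −0.17), which did not pass the size rule, while 4.85% of the 2328 genes measured there passed. The 6 astrocyte markers summed to 4420 CPM in HFD and 4463 CPM in NFD in these nuclei, with none at 0. After thinning, Ntsr2 was found in 53.1% (45.1 to 61.0) of HFD and 62.0% (53.4 to 70.2) of NFD astrocyte-like nuclei, intervals that overlap. With the cluster mix held equal the ratio over all nuclei was −0.44 (−0.62 to −0.27), which is not a call either, and when each nucleus was thinned, which leaves out 58 HFD and 212 NFD astrocyte-like nuclei, it turned to 0.05 (−0.24 to 0.34).

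**Figure D4:**
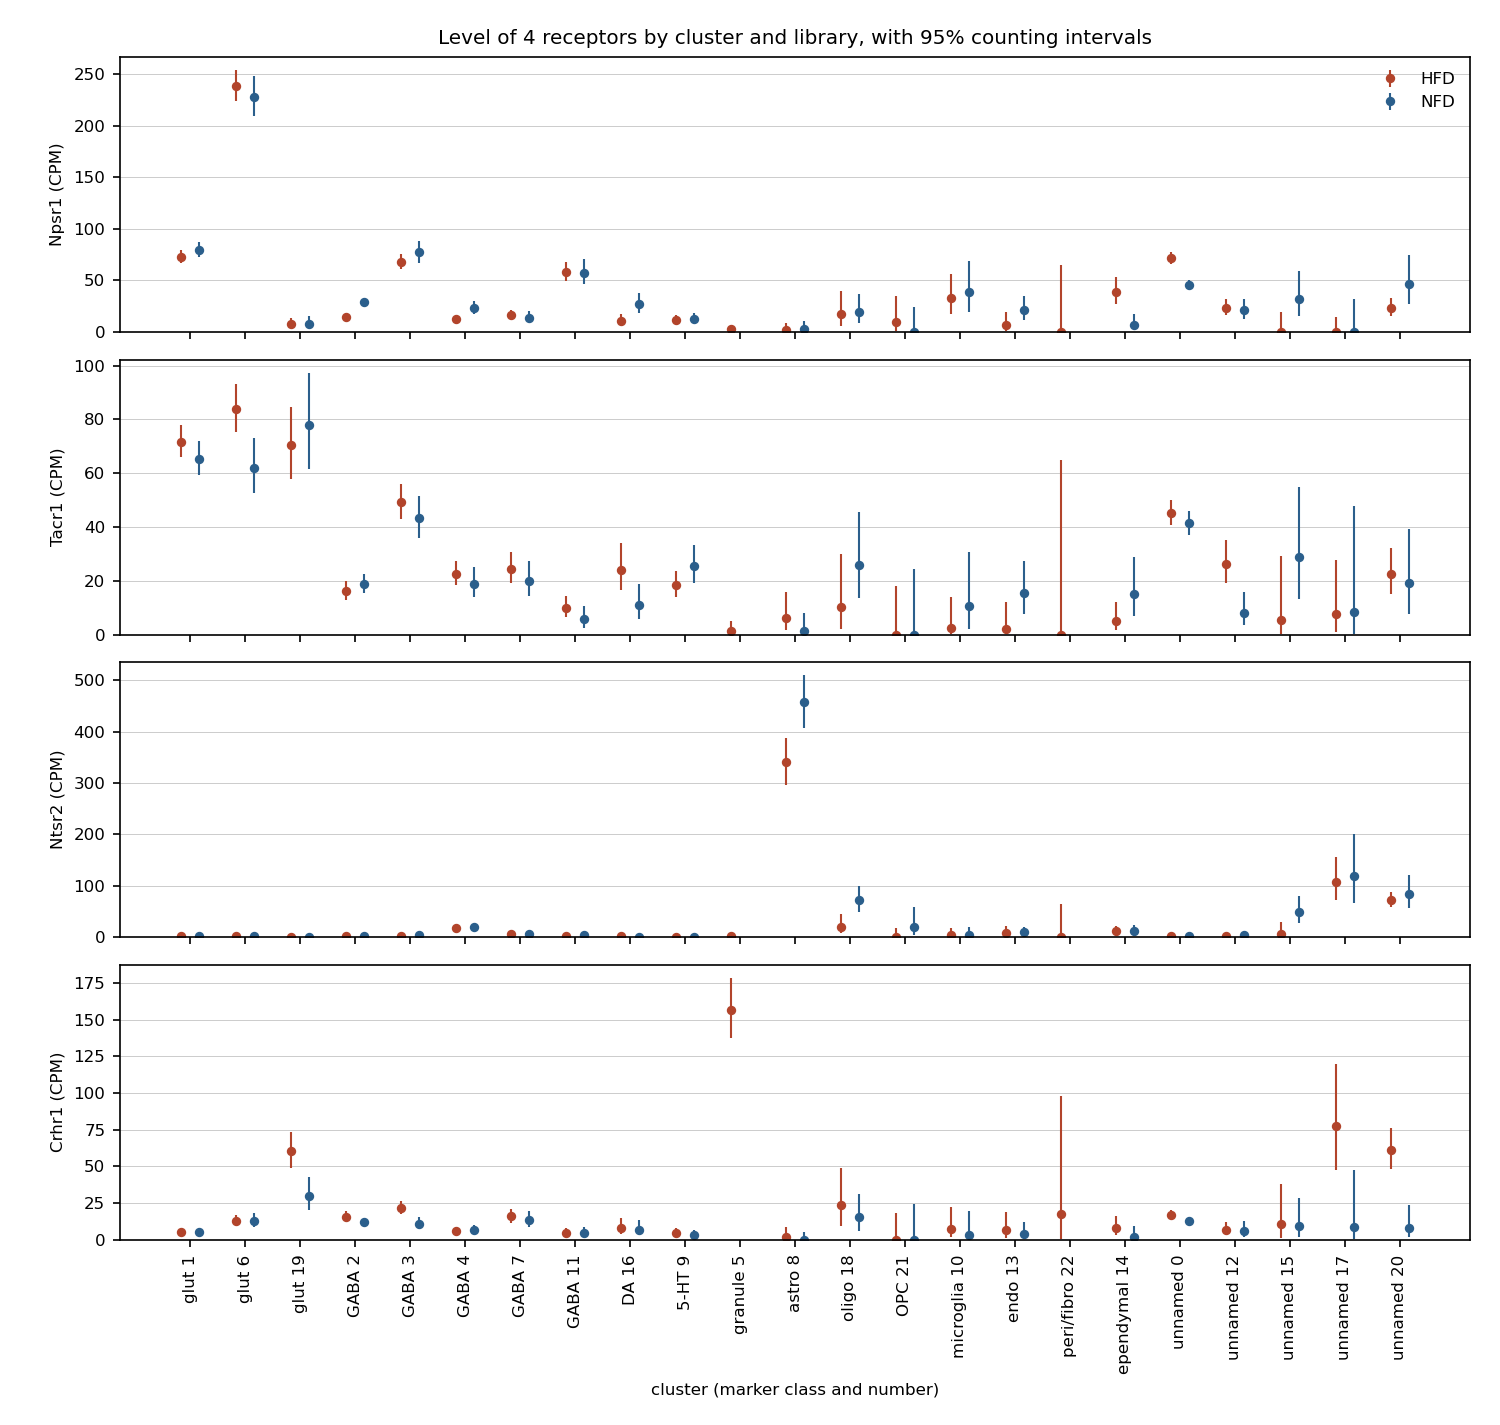
Level in CPM (vertical axes, each from 0) of Npsr1, Tacr1, Ntsr2 and Crhr1 in each cluster (horizontal axis, by marker class and cluster number), HFD in red on the left of each pair and NFD in blue, with 95% counting intervals; clusters with under 50000 UMIs of all genes in a library are not drawn. Npsr1 peaks in cluster 6 and Ntsr2 in cluster 8 in both libraries, while Crhr1 peaks in cluster 5, drawn for HFD only.

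Cckbr encodes the cholecystokinin B receptor, the main brain receptor for the peptide and a known opponent of opioid analgesia, and lies on chromosome 7 (105425731 to 105470898, plus strand). Apart from clusters with 1 UMI of the gene, its highest level was in cluster 14, the ependymal-like nuclei, led by cilia genes such as Cfap299 and Dnah12, and ependymal cells line the aqueduct. There it had 51 UMIs and 52.3 CPM (38.9 to 68.7) in HFD, and 20 UMIs and 33.9 CPM (20.7 to 52.4) in NFD, which overlap. This was 14.9-fold (10.7 to 20.4) above all other nuclei in HFD and 10.9-fold (6.43 to 17.5) in NFD. A UMI was found in 19.1% of HFD and 9.94% of NFD ependymal-like nuclei, or 8.39% and 5.38% after thinning. In the background nuclei there was none in 354 HFD nuclei, which allows up to 3 UMIs, and 1 UMI in 614 NFD nuclei.

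Cckbr was also read in neurons, where cluster 1 held more of its UMIs than the ependymal-like cluster did. That cluster had 71 UMIs and 9.10 CPM in HFD and 48 UMIs and 7.70 CPM in NFD, together 30.9% of the UMIs of the gene, beside 18.4% in cluster 14. Ak8, Crocc2 and Ttc21a were closest in pattern (r of 0.941, 0.924 and 0.921). In glutamatergic-like nuclei Cckbr had 6.69 CPM in HFD and 6.23 CPM in NFD, a log2 ratio of 0.10. Cckbr and its ligand gene Cck shared 14 nuclei in each library. Cckbr was found in 3.32% of HFD and 1.68% of NFD nuclei, and Cck in 5.22% and 6.32%. An excess over these shares was not tested.

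Crhr1 encodes the main receptor for corticotropin-releasing hormone, the peptide that starts the hormonal stress response, and lies on chromosome 11 (104132855 to 104175523, plus strand). It had 997 UMIs and 18.3 CPM in HFD, against 395 UMIs and 9.62 CPM in NFD, a log2 ratio of 0.92 (0.75 to 1.10). Its highest level was in the granule-like nuclei of cluster 5, led by Gabra6, Etv1 and Fat2, with 230 UMIs and 157 CPM (137 to 178) in HFD, while the 10 NFD nuclei of that cluster held 2 UMIs. Cluster 5 thus gave 23.1% of the Crhr1 UMIs in HFD and 0.506% in NFD. The unnamed clusters 17 and 20 differed in the same way, with 77.3 CPM in HFD and 8.58 CPM in NFD, and with 61.0 and 8.19 CPM, on 20 and 79 UMIs in HFD against 1 and 3 UMIs in NFD. Both also carried the granule neuron gene Gabra6 in HFD, at 240 and 187 CPM, and at 0 in NFD.

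Without cluster 5 Crhr1 stayed higher in HFD, at 14.4 CPM against 9.58 CPM in NFD, a log2 ratio of 0.59 (0.41 to 0.77), where 3.95% of genes were called. Without clusters 5, 17 and 20 it was 12.95 CPM in HFD and 9.59 CPM in NFD, a log2 ratio of 0.43 (0.25 to 0.62), and it was no longer called, beside 3.94% of genes. Ntsr2 stayed lower in HFD in both sets, at a log2 ratio of −0.50 (−0.67 to −0.32) without cluster 5 and −0.73 (−0.92 to −0.54) without all 3 clusters. With the cluster mix held equal, the Crhr1 ratio was 0.44 (0.00 to 0.88).

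Within neuronal classes Crhr1 was not called. GABAergic-like nuclei had 273 UMIs and 13.4 CPM in HFD, against 155 UMIs and 10.2 CPM in NFD, a log2 ratio of 0.40 (0.11 to 0.69). Glutamatergic-like nuclei had 14.0 CPM in HFD and 9.65 CPM in NFD, a log2 ratio of 0.54 (0.18 to 0.92). In each class 5 receptors were measured and 0 called, beside 2.2% of all genes in GABAergic-like and 2.54% in glutamatergic-like nuclei. The median log2 ratio of the 5 was −0.07 in GABAergic-like nuclei, where 2 were above 0, and 0.11 in glutamatergic-like nuclei, where all 5 were. All genes measured had medians of −0.04 and −0.05 in these classes.

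In 2 single clusters Crhr1 was called higher in HFD. Glutamatergic-like cluster 19 had 95 UMIs and 60.3 CPM in HFD, against 30 UMIs and 30.02 CPM in NFD, a log2 ratio of 1.01 (0.40 to 1.65), where 1 of 2 measured receptors and 4.99% of genes were called. GABAergic-like cluster 3 had 97 UMIs and 21.5 CPM in HFD, against 30 UMIs and 10.7 CPM in NFD, a log2 ratio of 1.0 (0.40 to 1.65), where 1 of 4 receptors and 1.7% of genes were called. A Crhr1 UMI was found in 44.0% of HFD and 20.8% of NFD nuclei of cluster 19, and after thinning in 14.0% (7.87 to 22.4) and 6.00% (2.23 to 12.6). In cluster 3 the thinned shares were 5.71% (3.83 to 8.15) in HFD and 2.29% (1.15 to 4.05) in NFD. Background nuclei had a Crhr1 UMI in 3.11% of HFD and 1.47% of NFD nuclei, and in 2.16% and 1.56% after thinning.

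Granule neuron RNA moved with Crhr1 between the libraries. Gabra6, a GABA-A receptor subunit gene of granule neurons, had 30.2 CPM in HFD and 0.24 CPM in NFD over all nuclei. Outside cluster 5 Gabra6 had 9.88 CPM in HFD and 0.17 CPM in NFD, and Fat2 had 5.31 and 0.15 CPM. Etv1, also a granule marker, differed less there, at 16.3 and 8.04 CPM. A sum over the markers therefore does not show how far each one differed. The 6 granule markers summed to 10.7 CPM in HFD and 5.34 CPM in NFD in GABAergic-like nuclei, with 1 marker at 0 in each, and to 12.9 and 7.37 CPM in glutamatergic-like nuclei, with 1 and 2 markers at 0. In mature oligodendrocyte-like nuclei they summed to 497 CPM in HFD and 65.1 CPM in NFD. The number of Crhr1 UMIs per Gabra6 UMI in HFD was 0.205 in cluster 5, and 0.323 and 0.325 in clusters 17 and 20. In microglia-like and mature oligodendrocyte-like nuclei it was 0.176 and 0.143, on only 3 and 7 Crhr1 UMIs. It was 5.25 in GABAergic-like and 3.5 in glutamatergic-like nuclei, 4.62 in cluster 3 and 9.5 in cluster 19. These neurons also had Crhr1 in NFD, where granule-like nuclei were few, and the part of granule neuron RNA in the higher Crhr1 of HFD neurons was not tested. The genes closest to Crhr1 in pattern were Grm4, Tesc and Rab37 (r of 0.907, 0.881 and 0.853).

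Oxtr encodes the oxytocin receptor and Avpr1a the vasopressin 1a receptor, both tied to social and stress behaviour. Oxtr lies on chromosome 6 (112473683 to 112489943, minus strand) and Avpr1a on chromosome 10 (122448499 to 122453452, plus strand). Oxtr had 56 UMIs and 1.03 CPM in HFD and 44 UMIs and 1.07 CPM in NFD. GABAergic-like cluster 3 held 17 and 10 of them, at 3.77 CPM (2.19 to 6.03) in HFD and 3.57 CPM (1.71 to 6.57) in NFD, which was 4.84-fold (2.56 to 8.75) and 4.02-fold (1.77 to 8.31) above all other nuclei. Background nuclei had 2 Oxtr UMIs in HFD and 0 in NFD. Avpr1a had 24 UMIs in HFD and 11 UMIs in NFD, or 0.44 and 0.27 CPM, and the antisense gene Gm48877 overlaps it. GABAergic-like nuclei held 13 and 5 of its UMIs, or 0.64 and 0.33 CPM, too few to read an enrichment from. Cluster 3 thus had the highest Oxtr level among clusters with at least 10 UMIs of the gene, and over both libraries it was also the GABAergic-like cluster with the highest CPM of Npsr1, Tacr1 and Tacr3.

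Sstr1, on chromosome 12 (58211772 to 58214444, plus strand), encodes a somatostatin receptor. It had 34 UMIs and 0.623 CPM in HFD and 30 UMIs and 0.731 CPM in NFD, too few for a ratio narrower than −0.98 to 0.53 on the log2 scale. GABAergic-like nuclei held 18 and 16 of these UMIs, at 0.89 CPM in HFD and 1.06 CPM in NFD. Of single clusters, cluster 4, which carries Sst among its leading genes, held 12 and 5. The GABAergic-like cluster 11, also with Sst among its leading genes, held none, while Sst was at 318 CPM in HFD and 372 CPM in NFD there. Of nuclei with an Sstr1 UMI, 60.6% in HFD and 53.3% in NFD carried GABA markers without glutamate markers, beside 32.2% and 32.8% of all nuclei. Sstr1 and Sst were found together in 8 HFD and 3 NFD nuclei, while Sst was found in 12.2% of HFD and 11.1% of NFD nuclei. These numbers are too small to read a link from them.

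The ligands of these receptors were measured in the same nuclei. Of 14 peptide genes, 4 had at least 100 UMIs, and 3 of these, Cck, Nts and Tac1, were lower in HFD over all nuclei (3.15% of all genes were). Cck had 10.97 CPM in HFD and 21.5 CPM in NFD, a log2 ratio of −0.97 (−1.12 to −0.82). The level of Nts was 7.47 CPM in HFD and 11.6 CPM in NFD (log2 ratio of −0.63, −0.83 to −0.44), and that of Tac1 was 16.9 and 23.2 CPM (−0.45, −0.59 to −0.32). Sst, at 51.2 CPM in HFD and 53.8 CPM in NFD, was not called. The median of the 4 was −0.54, beside −0.04 for all genes, and without cluster 5 the rule called 2 of them, with Tac1 no longer among them.

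Cck was also lower in HFD inside clusters that make it, and Nts was in cluster 6. Cck had 172 UMIs and 130 CPM (111 to 150) in HFD, against 311 UMIs and 262 CPM (234 to 293) in NFD, in dopaminergic-like cluster 16, a log2 ratio of −1.02 where 1.35% of genes were called. In cluster 6 Cck had 50.0 CPM in HFD and 103 CPM in NFD (log2 ratio of −1.04), and Nts had 43.2 CPM (37.0 to 50.0) in HFD and 69.6 CPM (59.5 to 81.0) in NFD (log2 ratio of −0.69), both called beside 1.3% of genes. Cluster 0 held 332 Nts UMIs over both libraries, beside 343 in cluster 6. There Nts had 17.7 CPM (15.0 to 20.8) in HFD and 22.0 CPM (18.9 to 25.5) in NFD, which overlap. In glutamatergic-like nuclei the Nts log2 ratio was −0.53 (−0.82 to −0.23), which was not called. In cluster 1, the main Tac1 cluster, Tac1 had 86.4 CPM in HFD and 110 CPM in NFD, a log2 ratio of −0.35 (−0.51 to −0.20) that was not called, while Cck was called lower there, at 12.8 and 21.5 CPM, beside 1.79% of genes. After thinning, a Cck UMI was found in 17.3% of HFD and 32.4% of NFD nuclei of cluster 16, and an Nts UMI in 6.89% and 6.67% of cluster 6. The lower CPM of Nts in HFD was thus not matched by a lower thinned share. In cluster 6 the receptor Npsr1 had a log2 ratio of 0.06 (−0.09 to 0.22) beside the lower Nts and Cck.

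**Figure D5:**
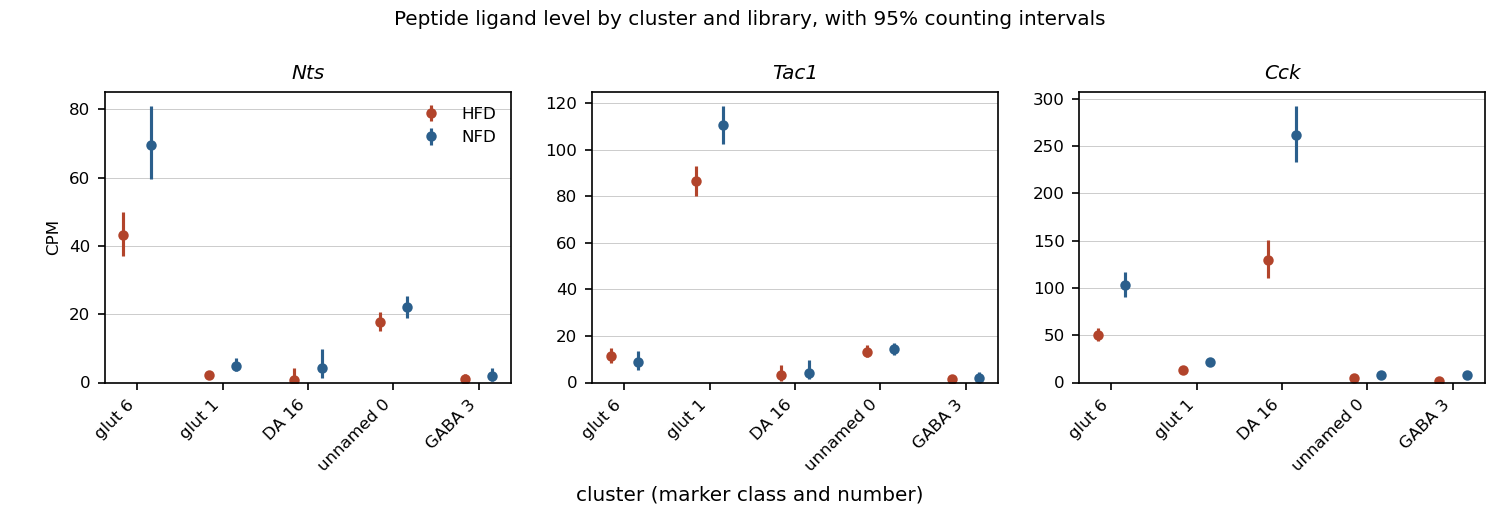
Level in CPM (vertical axes, each from 0) of Nts, Tac1 and Cck in 5 clusters (horizontal axis, by marker class and number), HFD in red on the left of each pair and NFD in blue, with 95% counting intervals. The HFD value is the lower of the pair where each peptide is most abundant: 43.2 against 69.6 CPM for Nts in cluster 6, 86.4 against 110 CPM for Tac1 in cluster 1 and 130 against 262 CPM for Cck in cluster 16.

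The other ligands were scarce in this tissue. Nps, the gene of neuropeptide S, had 3 UMIs in HFD and 4 UMIs in NFD. Its long receptor gene Npsr1 had the most UMIs of the 10, but raw UMIs of different genes are not a like measure. Crh had 33 and 47 UMIs, Ucn2 had 37 and 19, Tac2 had 7 and 25, Oxt had 11 and 14, Cort had 8 and 12, Tac4 had 10 and 7 and Ucn had 4 and 8. Avp had 0 UMIs in HFD, which allows up to 3, and 2 in NFD, and Ucn3 had 0 and 1.

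The wider receptor pathways were read over all nuclei against the 4.87% of all genes called there. Of 10 other receptors of the same families 3 were measured and 0 called: Crhr2, the second receptor for the corticotropin-releasing hormone family, had 1.30 CPM in HFD and 0.73 CPM in NFD (log2 ratio of 0.83, 0.20 to 1.498), and the ratios of Sort1 and Sstr2 were 0.06 and −0.05. Of 24 G protein and effector genes 23 were measured, with 17 above 0 and a median of 0.09 beside −0.04 for all genes. The only call among them was Adcy1, a calcium-activated adenylyl cyclase, at 56.1 CPM in HFD and 40.8 CPM in NFD (log2 ratio of 0.46, 0.37 to 0.55), and without cluster 5 it was at 45.4 and 40.7 CPM and not called. Itpr3, Itpr2 and Gna14 followed in size with 0.33, −0.32 and −0.32.

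In glutamatergic-like nuclei 19 effector genes were measured and 2 were called, beside 2.54% of all genes, both picked out here after their values were seen. Itpr2, a calcium release channel gated by inositol trisphosphate, was lower in HFD, at 14.9 CPM against 23.5 CPM in NFD (log2 ratio of −0.65, −0.93 to −0.37). Prkca, a protein kinase C that Gq signals activate, was higher in HFD, at 306 CPM against 230 CPM in NFD (0.41, 0.34 to 0.49). In GABAergic-like nuclei 0 of 19 were called, beside 2.2% of all genes. Over all nuclei all 7 kinase and arrestin genes that turn such receptors off were measured and 0 were called, beside 4.87% of all genes, with Grk5 at 0.35, Grk4 at −0.28, Grk2 at 0.23 and Arrb1 at 0.16.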

How the data were processed

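Nuclei of the pooled vlPAG tissue were captured with 10x Genomics 3' chemistry (version 3), 1 library per diet. The authors deposited 1 matrix of UMI counts per library, made per the file headers with Cell Ranger 4.0.0 and, per the submitters' processing notes, with bcl2fastq 5.01, Cell Ranger, Seurat 3.1.1 and the GRCm38 build. The sources do not say whether counting used strand or introns, so reads of Npsr1 and Avpr1a cannot be told apart from those of their antisense genes. Gene positions came from GENCODE vM21.

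Barcodes with more than 500 UMIs and under 20% mitochondrial UMIs were kept (6322 of 6813 in HFD and 7500 of 7625 in NFD). Counts were log-normalised to 10000 per nucleus in Seurat 5.3.0 (R 4.3.3, Matrix 1.6.5), and clustered on 20 principal components of 1923 variable genes at resolution 0.5 without integration. The variable genes were 2000 less the receptors, their ligands and genes the study listed as changed with diet. Scrublet (scanpy 1.11.5) called 0 HFD and 1 NFD doublets, too few to have worked, so likely doublets stayed in, and an alternative removed the highest 6% of scores (379 HFD and 450 NFD nuclei). A cluster was named where the markers of a class averaged a log2 fold of 1 or more after 10 CPM was added (2 or more for serotonergic, dopaminergic and granule neurons), with at least 3 markers found in 10% of nuclei and a gap of 1 to the next class. A cluster far shallower than its libraries lost any name without a marker of that class among its 10 leading genes. Clusters below the fold threshold were named GABAergic-like or glutamatergic-like where markers of that transmitter were at least 2 times those of the other. At least 3 markers of that class also had to be found in 10% of nuclei, and no separate neuron marker was required. This scoring rule was set after the clusters had been seen.

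UMIs were summed per library and cluster or class (Python 3.11.15, numpy 2.4.6, scipy 1.17.1, pandas 2.3.3, matplotlib 3.10.9). Intervals are 95% and exact (Poisson for CPM, binomial for ratios and, by Clopper and Pearson, for shares) and cover counting error only. A ratio was called at 100 UMIs or more in the set when its interval put one library over 25% above the other. Because each diet is 1 library, no p-value was computed and no replicate could be left out. The call rule and the interval code were tested on simulated data.

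All 10 receptors were named. Of the other lists the counts and up to 4 measured genes with the largest ratios were named, with every ligand. Genes of like pattern were the 3 with the highest Pearson r of log2(CPM + 10) over clusters, for receptors and genes with at least 200 UMIs and r of at least 0.8. The receptors, lists and tests were chosen with earlier results of these data known.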

Additional observations from a re-analysis of the deposited data

Results flagged for a closer look

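Npsr1 differed between HFD and NFD in opposite directions in 2 clusters. Its log2 ratio of HFD over NFD was 0.65 in the unnamed cluster 0 and −0.95 in GABAergic-like cluster 2. The difference between the clusters was not tested, since each diet is 1 library. The size and Npsr1 level of both clusters changed when the highest 6% of doublet scores were removed.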

How the results depend on the processing

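The number of receptors called over all nuclei was 2. It was 1 (Crhr1) with no filter on barcodes, 1 (Crhr1) when ratios were centred on the median of all genes, 1 (Crhr1) with nuclei thinned to 2000 UMIs and 1 (Crhr1) when the interval had to lie beyond 1.5-fold. It was 0 with the cluster mix held equal and 1 (Ntsr2) without clusters 5, 17 and 20, a set chosen after seeing the data, as was the one without cluster 5. The call count stayed at 2 under the stricter filter, with the highest 6% of doublet scores removed, with a minimum of 20 UMIs and without cluster 5. In GABAergic-like and glutamatergic-like nuclei it was 0 under every alternative run.

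Of 149 recomputed log2 ratios, 128 kept their sign. The one called ratio that turned was Ntsr2 over all nuclei, at 0.051 after thinning, where fewer astrocyte-like nuclei remain. It was −0.37 in astrocyte-like nuclei thinned in the same way. In the astrocyte-like cluster found once the highest doublet scores were removed it was −0.87. That cluster had 609 nuclei and 334 CPM of Ntsr2 over both libraries, against 567 nuclei and 401 CPM in cluster 8, so its membership had changed. The Crhr1 ratio over all nuclei lay between 0.43, without clusters 5, 17 and 20, and 1.85, with each nucleus weighted equally. The highest named cell group of a receptor was the same in 23 of 24 alternatives. The exception was Ntsr1 with the highest doublet scores removed, where its cluster of dopaminergic genes went unnamed. The cluster led by Spx and Prdm6 also went unnamed in that setting. No paired analysis was possible because each diet has 1 library. Low UMI numbers limit Oxtr, Avpr1a and Sstr1, and the shallower NFD nuclei limit shares of nuclei with a UMI.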
